A study of Rattus norvegicus with 6 samples.

Results

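Antioxidant genes, target genes of the transcription factor NRF2 and NADPH oxidase genes were examined in neonatal rat ventricular cardiomyocytes (NRVCs) cultured with or without C3a. The set held 35 genes, chosen by name with earlier results of these data known. They were found on the arrays through the accession of their probes. Every one of the 35 had a probe among the 16581 gene symbols that could be named. A gene with several probes was represented by the probe with the highest mean signal. Of the 35 genes, 32 exceeded background clearly on each of the 3 arrays in one group or both and were compared, among 10388 genes in all. The remaining 3 were Gclm, Cybb and Nox4.

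NRVCs are taken directly from the ventricles of newborn animals, here pooled from 8 to 10 Sprague-Dawley pups of 1 to 2 days. The Control group was 3 cultures in control medium. The C3a group was 3 cultures that received recombinant C3a, the anaphylatoxin fragment of complement C3, at 0.5 µg/ml for 12 h. Both groups were grown without serum per the labels, and in the methods C3a followed a 1 h starvation step with 1% fetal bovine serum. Nothing in the records says that the cultures came from separate preparations, so the p-values measure the spread between these samples, which may be technical. Each RNA sample was labelled with Cy3 and hybridised to its own 1-colour Agilent rat array. The question was whether C3a altered the expression of cardiomyocyte genes.

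Cells hold superoxide and peroxide in check with superoxide dismutases, catalase and peroxiredoxins, which draw their reducing power from the thioredoxin and glutathione systems. NRF2, the product of Nfe2l2, switches on many of these genes by binding antioxidant response elements, and KEAP1 marks NRF2 for breakdown until oxidants or electrophiles modify it. NADPH oxidases are membrane enzymes that make superoxide or hydrogen peroxide, and in the heart NOX2 and NOX4 are the best known of them.

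The level of a gene is given as the log2 of its background-corrected signal minus the 75th percentile of the array, so that 0 marks the 75th percentile. The 6 arrays shared 1 slide, with Control and C3a on opposite sides, so slide side and treatment cannot be told apart. Control 1 had the highest local background, and 38.6% of its probes exceeded background clearly, against 53.7% to 57.3% on the other 5 arrays. All 15 cardiomyocyte markers examined were well above background on all 6 arrays, as were 7 of 10 fibroblast markers, 5 of 8 endothelial markers and 5 of 7 smooth muscle and pericyte markers, so the cultures were not cardiomyocytes alone. Because these are bulk samples, fewer cells of a type and less RNA per cell cannot be told apart in any difference below. The number of arrays limits the precision.

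**Figure D1:**
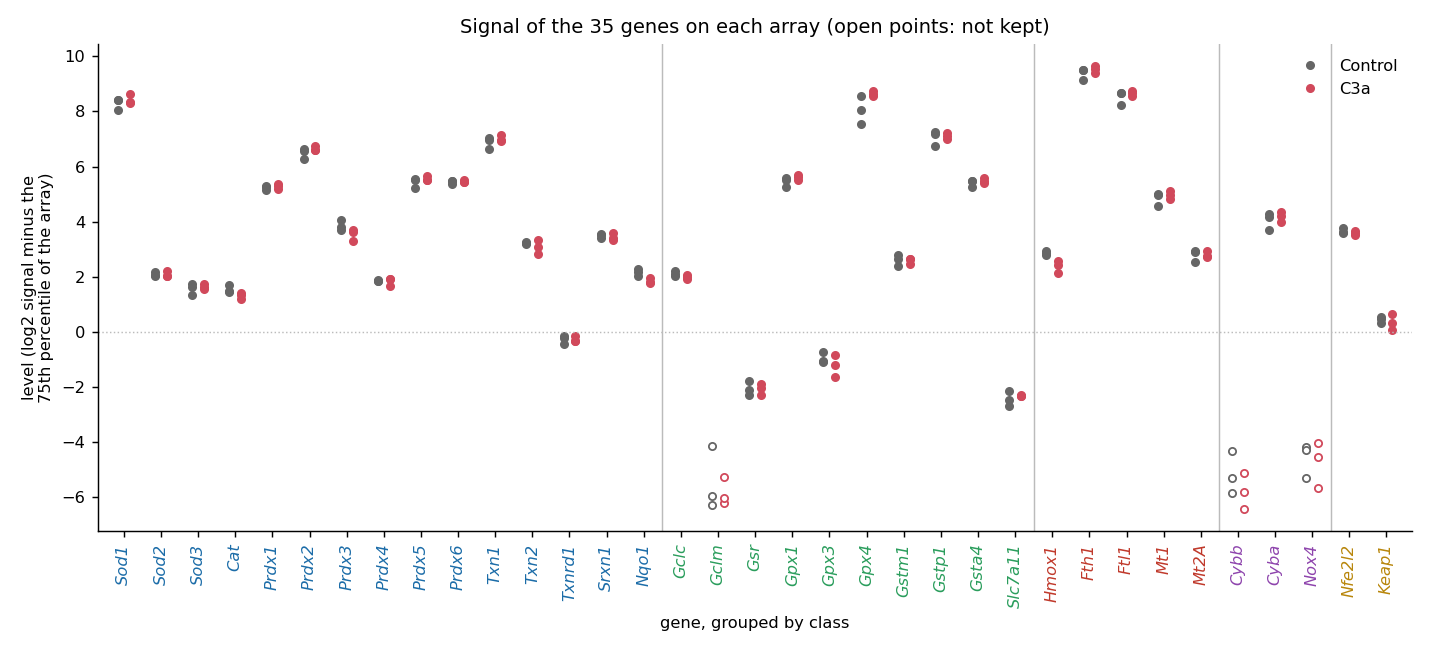
Level of each of the 35 genes on every array, as log2 signal minus the 75th percentile of the array, with Control in grey and C3a in red and the genes grouped by class. The groups lay close together for nearly every gene, and the open points of Gclm, Cybb and Nox4 mark genes without a usable signal. The height of different genes also depends on their probes and is not a comparison of transcript amounts.

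No member passed the adjusted threshold. By limma with Benjamini-Hochberg adjustment over all 23438 probes kept, 0 of the 32 members had an adjusted p under 0.05 (0% of all genes tested), with adjusted p between 0.746 and 0.989. At an unadjusted p under 0.05, 1 member was higher with C3a, Gpx4, and 2 were lower, Hmox1 and Nqo1. The higher call was 3.12% of the members, against 2.89% of all genes tested, and the lower calls were 6.25%, against 2.46%. As the set was chosen with earlier results known, these shares and those below describe it and are not a test. The 3 C3a arrays all lay below the 3 Control arrays for 4 members, Hmox1, Nqo1, Cat and Prdx3, or 12.5% of the members against 4.86% of all genes, and all lay above them for 0 members, against 8.09%. Background was cleared on all 3 Control arrays by 17519 probes and on all 3 C3a arrays by 23425. Of the 32 members, 30 cleared it in both groups. The members and all genes are therefore unlike in this, and its part in these gaps was not tested. With 3 arrays against 3, the exact two-sided permutation test cannot give a p below 0.1. The counts depended on the scaling between arrays. They were 0 members higher and 3 lower under quantile normalization, and 0 higher and 5 lower without any normalization. Without normalization the median over all kept probes was itself -0.28, against 0.02 under quantile normalization. The count of 5 is therefore not a result about the members, and the counts over all kept probes without normalization are given at the end. In simulated arrays of the same size, a log2 change of 1 was called by limma for 42 of 50 probes and 0.5 for 4 of 50. The simulated noise was independent between probes, and changes of 2 and 3 were planted as well. These counts may therefore overstate what the real arrays could show. The largest difference among the members was 0.57 on their brightest probes.

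**Figure D2:**
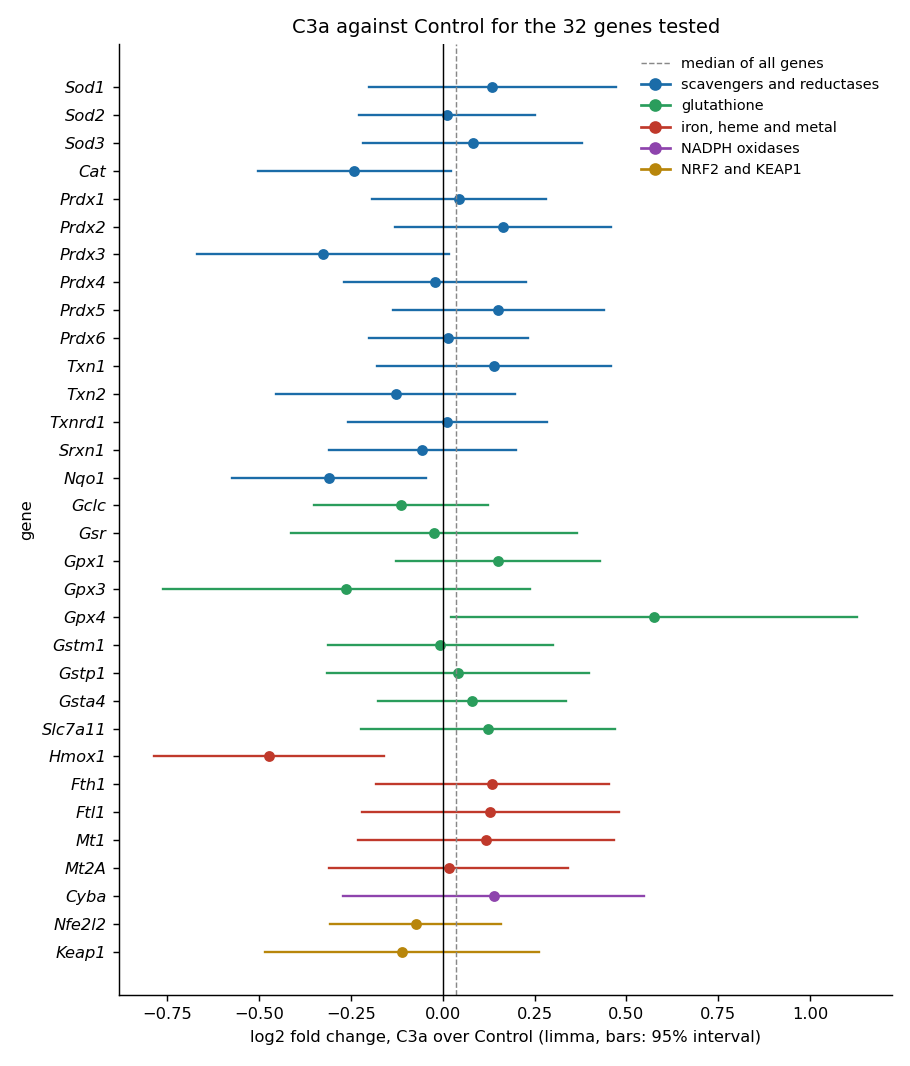
Log2 fold change of C3a over Control for the 32 genes tested, with limma's 95% confidence interval as a bar and the class as the colour, and the median of all genes as a dashed line. The intervals of Hmox1 and Nqo1 lay below 0 and that of Gpx4 above it, and all the others crossed 0.

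Hmox1, the inducible heme oxygenase that breaks heme down to biliverdin, iron and carbon monoxide, had the lowest unadjusted p of the set. Its level was 2.77, 2.94 and 2.85 on the Control arrays and 2.42, 2.58 and 2.14 on the C3a arrays. Every C3a array was below every Control array. The log2 fold change was -0.47 (SE 0.13, 95% interval -0.79 to -0.16, n = 3 and 3), or 1.39-fold lower with C3a, with limma's unadjusted p = 0.00881 and adjusted p = 0.746. The arrays of the same replicate number differed by -0.35, -0.36 and -0.71. The direction and the unadjusted p under 0.05 held in all 20 alternative settings, with the log2 fold change between -0.92 and -0.35. The -0.92 came from spike-in scaling, where the median over all kept probes was -0.40. Without normalization that median was -0.28, so these 2 settings shift most genes down. Heme oxygenase is also made by macrophages, of whose 12 markers 3 were well above background on all 6 arrays and 4 (C1qa, C1qc, Mrc1 and Cd163) on none. The summed macrophage signal was 6.13 to 7.84 times the 75th percentile on the Control arrays and 6.09 to 6.66 times on the C3a arrays. Lyz2, with a mean level of 2.41 in Control and 2.32 with C3a, made up most of that sum. The tested macrophage markers did not share a direction, and the part of this signal in the Hmox1 result was not tested.

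The other 4 genes of iron, heme and metal handling lay above 0 in this scaling, with groups that overlapped. Fth1 and Ftl1 encode the heavy and light chains of ferritin, the iron store. Fth1 had a level of 9.51, 9.15 and 9.52 in Control and 9.65, 9.41 and 9.53 with C3a, and Ftl1 had 8.69, 8.23 and 8.68 in Control and 8.75, 8.55 and 8.68 with C3a. On both, Control 2 was the lowest array, and the log2 fold changes were 0.14 (SE 0.13) and 0.13 (SE 0.15). The metallothioneins, small cysteine-rich proteins that bind zinc and copper, gave 0.12 (SE 0.15) for Mt1 and 0.02 (SE 0.14) for Mt2A. The 95% intervals of these 4 genes reached from -0.31 to 0.48 at their widest. The median over the 5 genes of the class was 0.12, against 0.04 over all genes.

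The first class held the 15 scavenger and reductase genes, all of which were well above background on all 6 arrays. Nqo1, a quinone reductase and standard NRF2 target, had a level of 2.01, 2.28 and 2.18 in Control and 1.80, 1.96 and 1.78 with C3a. The groups did not overlap, although C3a 2 came close to Control 1. The log2 fold change was -0.31 (SE 0.11, 95% interval -0.57 to -0.05), with limma's unadjusted p = 0.0271 and adjusted p = 0.746, and the pairs differed by -0.21, -0.32 and -0.40. The unadjusted p rose above 0.05 without Control 2, without Control 3, without C3a 1 or without C3a 3, with log2 fold changes between -0.30 and -0.25.

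Prdx3, the mitochondrial peroxiredoxin, had a level of 3.80, 4.05 and 3.70 in Control and 3.60, 3.68 and 3.29 with C3a. The groups were narrowly separate, and within each group replicate 2 was highest and replicate 3 lowest. The log2 fold change was -0.33 (SE 0.15), with an unadjusted p of 0.0592 by limma, and with the replicate number as a block the unadjusted p was 0.0159 and the adjusted p 0.272. It was -0.21 without C3a 3 and -0.17 with array weights, and without Control 3 or C3a 2 it was -0.40 with an unadjusted p of 0.0485 and 0.0488 by limma. Catalase, the peroxisomal enzyme that splits hydrogen peroxide, showed 1.49, 1.69 and 1.45 in Control and 1.32, 1.18 and 1.40 with C3a. Here too the groups did not overlap, and the pair of replicate 2 gave most of the difference (-0.17, -0.50 and -0.05). The log2 fold change of Cat was -0.24 (SE 0.11), with an unadjusted p of 0.0665 by limma and 0.0942 with the block. For Nqo1, Prdx3 and Cat the log2 fold change was below 0 in all 20 alternative settings. These include spike-in scaling and no normalization, where the medians over all kept probes were -0.40 and -0.28.

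**Figure D3:**
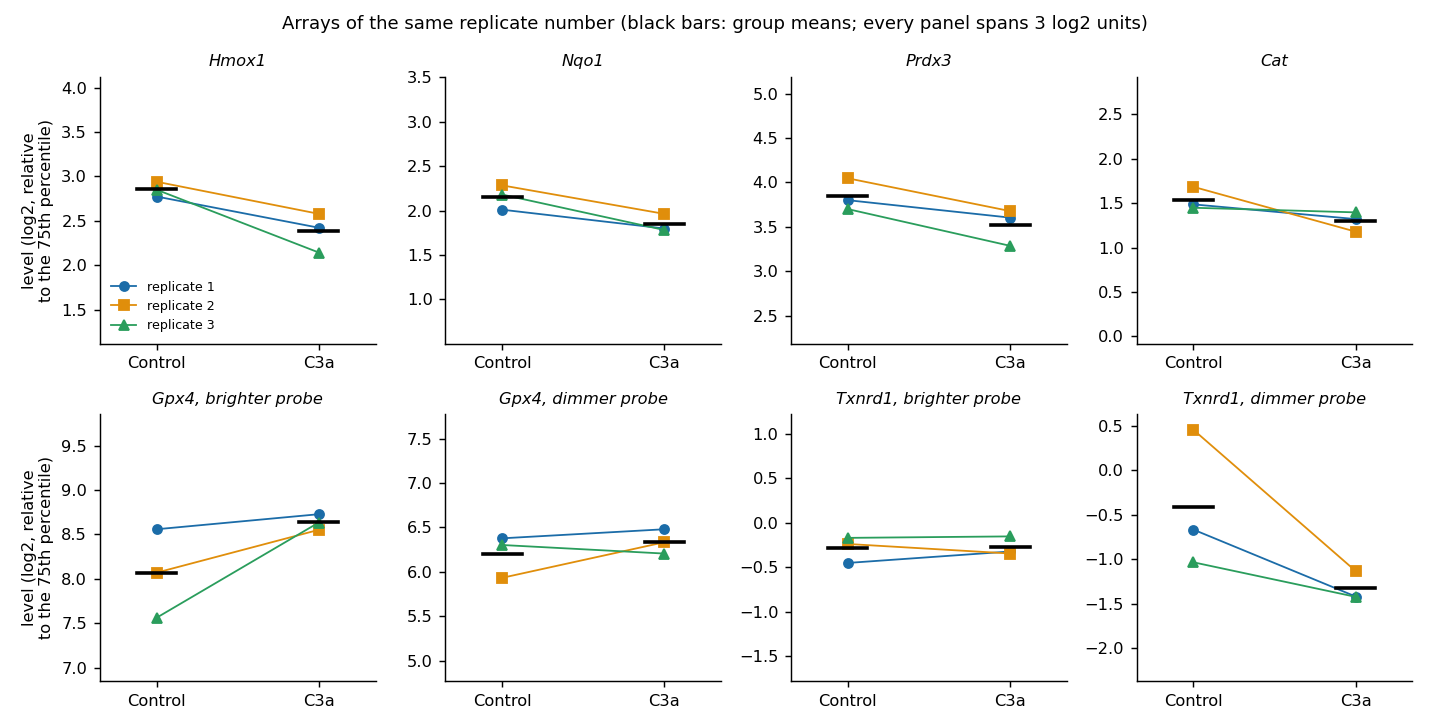
Level on each array for Hmox1, Nqo1, Prdx3 and Cat and for both probes of Gpx4 and Txnrd1, with lines joining the Control and C3a arrays of the same replicate number and black bars at the group means. The 3 lines of Hmox1, Nqo1, Prdx3 and Cat all ran downward. The lines of the brighter Gpx4 probe ran upward from Control values spread between 7.56 and 8.56, and Control 2 stood apart on the dimmer Txnrd1 probe.

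The other 12 scavengers and reductases had log2 fold changes between -0.13 and 0.16. The superoxide dismutases, which turn superoxide into hydrogen peroxide, gave 0.14 for the cytosolic Sod1, 0.01 for the mitochondrial Sod2 and 0.08 for the secreted Sod3 (SE 0.10 to 0.14). Among the peroxiredoxins, which reduce peroxides through a reactive cysteine, the values were 0.04 for Prdx1, 0.16 for Prdx2, -0.02 for Prdx4 in the endoplasmic reticulum, 0.15 for Prdx5 and 0.02 for Prdx6. The SE of these 5 values was 0.09 to 0.13. Prdx3 was therefore the lowest of the 6 peroxiredoxins, but whether it differed from the others was not tested. Txn1, the cytosolic thioredoxin that reduces peroxiredoxins, gave 0.14 (SE 0.14), and the mitochondrial Txn2 gave -0.13 (SE 0.14). Srxn1, which repairs overoxidised peroxiredoxins and is another NRF2 target, gave -0.06 (SE 0.11, 95% interval -0.31 to 0.20).

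Txnrd1, the cytosolic thioredoxin reductase and an NRF2 target, was read by 2 probes that disagreed. On the brighter probe the level was -0.45, -0.24 and -0.17 in Control and -0.32, -0.35 and -0.15 with C3a, a log2 fold change of 0.01 (SE 0.11, 95% interval -0.26 to 0.28). On the dimmer probe it was -0.67, 0.46 and -1.03 in Control and -1.42, -1.13 and -1.42 with C3a, a log2 fold change of -0.91 (SE 0.35), with limma's unadjusted p = 0.0366 and adjusted p = 0.746. On that probe Control 2 stood well above the other arrays, and without it the log2 fold change was -0.47 with an unadjusted p of 0.0249 by limma. The unadjusted p was 0.0930 without C3a 1, 0.0534 without C3a 2 and 0.0974 without C3a 3, so the call held in 3 of 6 fits that left out 1 array. Both probes carry the same transcript accession, and which transcripts each one reads was not examined here.

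The glutathione class held 10 genes, of which 9 were tested. Gpx4, the glutathione peroxidase that reduces lipid hydroperoxides within membranes, had the largest positive difference of the whole set. Its brighter probe gave 8.56, 8.07 and 7.56 in Control and 8.73, 8.55 and 8.63 with C3a. The Control arrays were spread over a wide range (SD 0.50) and the C3a arrays over a narrow one (SD 0.09), and Control 1 lay above C3a 2. The log2 fold change was 0.57 (SE 0.23, 95% interval 0.02 to 1.13), or 1.49-fold higher with C3a, with limma's unadjusted p = 0.0438 and adjusted p = 0.746. Without Control 3 it was 0.32 and the unadjusted p was 0.105, and leaving out any array other than Control 1 brought the unadjusted p above 0.05. The second Gpx4 probe gave 6.38, 5.93 and 6.30 in Control and 6.48, 6.33 and 6.21 with C3a. That probe did not show the low value of Control 3, and its log2 fold change was 0.14 (SE 0.15, unadjusted p = 0.383 by limma).

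The other glutathione genes ranged from -0.26 to 0.15. Gpx3, the secreted plasma peroxidase, had a level of -1.06, -0.75 and -1.11 in Control and -1.22, -0.84 and -1.65 with C3a. All 3 pairs were lower with C3a, most of all replicate 3, while the groups overlapped, and the log2 fold change was -0.26 (SE 0.21, unadjusted p = 0.254 by limma and 0.0753 with the block). The value rested on a few arrays, at -0.06 without C3a 3, -0.15 without Control 2 and -0.46 without C3a 2 (unadjusted p = 0.0476 by limma). Gpx1, the cytosolic peroxidase, gave 0.15 (SE 0.12). The glutathione S-transferases, which conjugate glutathione to electrophiles, gave -0.01 for Gstm1, 0.04 for Gstp1 and 0.08 for Gsta4 (SE 0.11 to 0.15).

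Glutathione supply was read by Gclc, Gclm, Slc7a11 and Gsr. Gclc, the catalytic subunit of the enzyme that limits glutathione synthesis, had a log2 fold change of -0.11 (SE 0.10, 95% interval -0.35 to 0.12), with all 3 pairs lower and the groups overlapping. Gclm, its modifier subunit, gave no signal clearly over background on any of the 6 arrays. Slc7a11, which brings in cystine, had -2.72, -2.17 and -2.50 in Control and -2.35, -2.34 and -2.32 with C3a. It cleared background on every C3a array but was missed on Control 1, and the log2 fold change was 0.12 (SE 0.15). Without Control 1 that value was -0.0033 (unadjusted p = 0.982 by limma), and without Control 2 it was 0.27 (unadjusted p = 0.0404). Gsr, which regenerates reduced glutathione, had -2.10, -2.28 and -1.78 in Control and -1.90, -2.31 and -2.03 with C3a, was likewise missed on Control 1, and gave -0.02 (SE 0.17). Slc7a11 and Gsr were the 2 members that passed the filter through the C3a arrays alone.

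Of the NADPH oxidase genes, 1 of 3 could be compared. Cyba encodes p22phox, the membrane partner that stabilises the catalytic NOX subunits. Its level was 4.27, 3.69 and 4.16 in Control and 4.35, 4.19 and 3.999 with C3a. The groups overlapped, with Control 2 the lowest array, and the log2 fold change was 0.14 (SE 0.17, 95% interval -0.27 to 0.55, unadjusted p = 0.451 by limma). Cybb, the catalytic subunit NOX2, read -4.32, -5.84 and -5.33 in Control and -6.43, -5.84 and -5.15 with C3a and cleared background on 0 arrays. Nox4, the oxidase that releases mainly hydrogen peroxide, read -4.19, -4.29 and -5.30 in Control and -4.03, -4.55 and -5.67 with C3a and was well above background on 1 Control array and on 0 of the C3a arrays. The second Nox4 probe was above background on none. For these genes no fold change is given, and the values do not show that the transcripts were missing.

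Nfe2l2 and Keap1 were measured on all 6 arrays. Nfe2l2 had a level of 3.63, 3.77 and 3.58 in Control and 3.65, 3.52 and 3.60 with C3a. The groups overlapped, and the log2 fold change was -0.07 (SE 0.10, 95% interval -0.31 to 0.16, unadjusted p = 0.478 by limma). Keap1, the inhibitor, had 0.47, 0.54 and 0.31 in Control and 0.31, 0.62 and 0.05 with C3a. Replicate 3 was lowest in both groups, and the log2 fold change was -0.11 (SE 0.16, 95% interval -0.48 to 0.26, unadjusted p = 0.502 by limma). NRF2 is regulated mainly through the stability of its protein, which these arrays do not measure.

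Arrays of the same replicate number deviated together, so the difference within each pair was also examined. This pairing was taken from these same values. The number is shared with the array's position along the slide, so array position and a shared culture cannot be told apart. All 3 pairs were higher with C3a for 7 members (Sod3, Prdx1, Prdx2, Gpx1, Gpx4, Fth1 and Ftl1), or 21.9% of the members against 23.4% of all genes. All 3 were lower for 6 members (Hmox1, Nqo1, Prdx3, Cat, Gclc and Gpx3), or 18.8% against 15.2%. Both shares were near those of all genes. With the replicate number as a block in limma, 1 member was higher at an unadjusted p under 0.05, Gpx4, and 3 were lower, Hmox1, Nqo1 and Prdx3, and 0 passed the adjusted threshold. The lower calls were 9.38% of the members against 6.06% of all genes, and the higher call was 3.12% against 5.79%. The blocked unadjusted p was 0.00668 for Hmox1, 0.0171 for Nqo1 and 0.0225 for Gpx4, and their adjusted p was between 0.229 and 0.298. The pair of replicate 2 was the highest of the 3 for 19 of the 32 members, against 49.9% of all genes. The pair of replicate 3 was the lowest for 25 of the 32, against 47.8%. Both shares of the members were above those of all genes, that of replicate 3 by more.

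**Figure D4:**
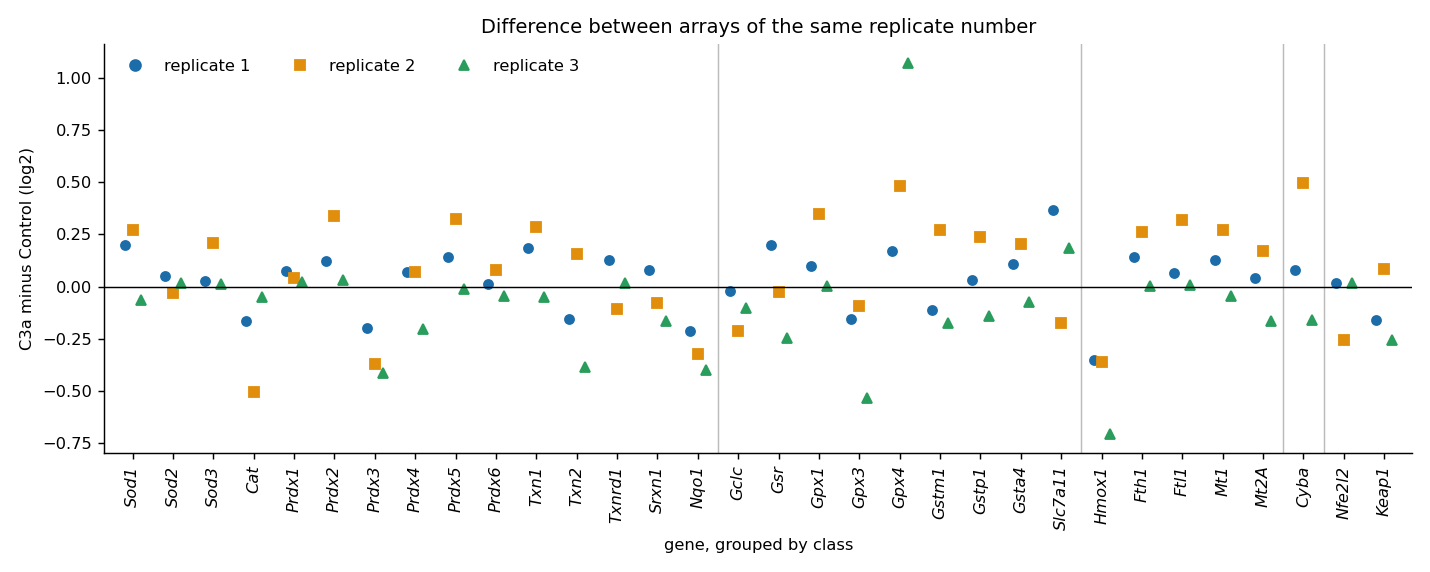
Difference in level between the C3a and the Control array of each replicate number, in log2 units, for the 32 genes tested, with replicate 1 as circles, replicate 2 as squares and replicate 3 as triangles. Hmox1, Nqo1, Prdx3, Cat, Gclc and Gpx3 had all 3 differences below 0 and 7 genes had all 3 above it, while the other 19 had differences on both sides.

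The direction of the small differences went with the brightness of the probe. Of the 14 members with a mean level of 4 or more, 14 had a log2 fold change above 0, with a median of 0.14. Among all genes of that brightness, 87.5% lay above 0, with a median of 0.09. Of the 18 dimmer members, 5 lay above 0 and 13 below, with a median of -0.06, against 56.3% above 0 and a median of 0.02 among all dimmer genes. The limit of 4 was chosen after the values were seen. Across the 32 members, Pearson's r between level and log2 fold change was 0.52, and across the 10388 genes it was 0.10; genes of the same arrays are not independent replicates. Under quantile normalization, which gives every array the same distribution, 6 of the 14 bright members lay above 0 with a median of -0.02. Of the 18 dimmer members 3 lay above 0, with a median of -0.11. The medians of all genes on that scale were -0.01 for the bright and 0.01 for the dimmer ones. Over all 32 members, 19 (59.4%) lay above 0 and 13 (40.6%) below in the scaling used here, against 60.5% and 39.5% of all genes, and 9 lay above 0 under quantile normalization. The small positive values of Sod1, Prdx2, Prdx5, Txn1, Gpx1, Fth1, Ftl1, Mt1 and Cyba are therefore not called increases. The medians of all kept probes were -0.28 without normalization and -0.40 after spike-in scaling, against 0.05 here. On those scales Hmox1 stood at -0.80 and -0.92 and Nqo1 at -0.64 and -0.76.

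**Figure D5:**
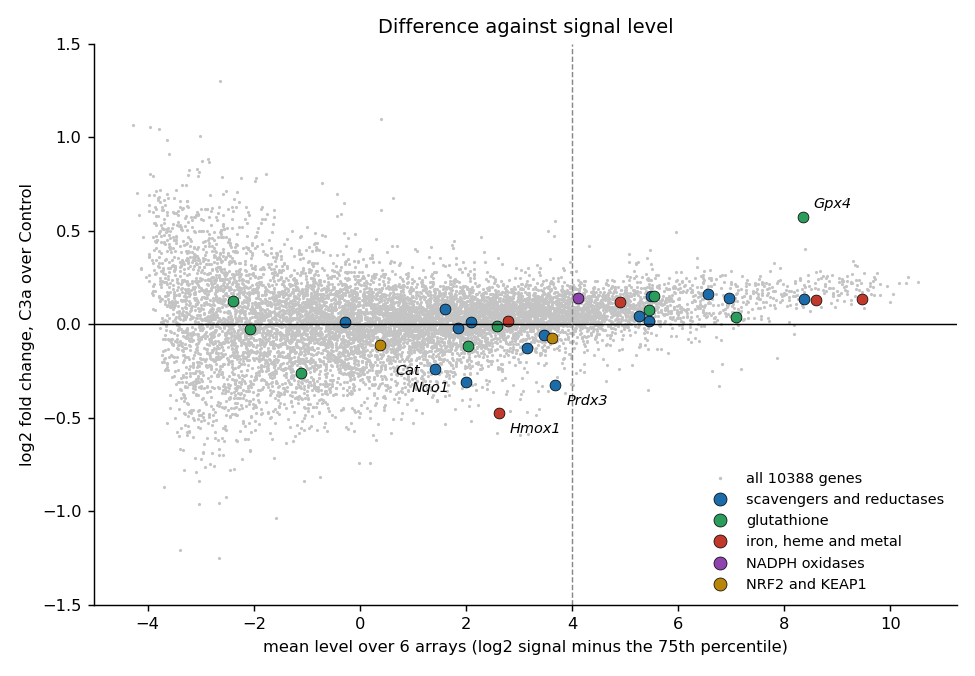
Log2 fold change of C3a over Control against the mean level over the 6 arrays, with all 10388 genes in grey and the 32 tested members coloured by class. The dashed line marks a level of 4, to the right of which all 14 members lay above 0, as did most grey points; 1 gene lies beyond the axis limit of 1.5.

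The binding sequence of NRF2 was searched in the promoters, because the classic NRF2 targets Hmox1 and Nqo1 were among the lower members. RefSeq promoter sequences (assembly GRCr8) were used for 29 of the 35 members, as 32 entries, the others being Sod3, Prdx6, Gsr, Hmox1, Fth1 and Ftl1. The 250 bases before the start site were searched on both strands for the core letters of the antioxidant response element, TGACNNNGC. They were present in 7 of the 32 entries, of the genes Sod2, Txnrd1, Prdx1, Gclm, Gstp1, Mt1 and Mt2A, and in 10.1% of all 33469 promoters in the table. In Gstp1, Prdx1 and Mt2A the match overlapped an AP-1 site, TGACTCA. The letters were not in this window of Nqo1, Prdx3 or Cat. A match is a description of letters, and its absence says only that the letters are not in this window. The 6 genes with a match that were tested had log2 fold changes between 0.01 and 0.12 on their brightest probes. The dimmer Txnrd1 probe gave -0.91. The promoters of Nqo1 and Prdx3, whose C3a arrays all lay below the Control arrays, are shown. Prdx3 was not called by limma in the main fit (unadjusted p = 0.0592), and no sequence was at hand for Hmox1. Beside them are those of Prdx1 and Txnrd1, which hold a match, given in capitals. Whether a match goes with the direction was not tested. The Txnrd1 sequence is the one with a match of the 2 in the table, and Mt1 is shown for its metal response elements, which are in capitals there.
Nqo1 (GRCr8 chr19:52220268-52220517, minus strand): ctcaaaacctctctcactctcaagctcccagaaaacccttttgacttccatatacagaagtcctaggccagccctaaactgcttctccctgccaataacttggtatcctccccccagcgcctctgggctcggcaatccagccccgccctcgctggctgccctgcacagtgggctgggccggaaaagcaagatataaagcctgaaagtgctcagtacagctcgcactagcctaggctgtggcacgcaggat
Prdx3 (GRCr8 chr1:270000112-270000361, minus strand): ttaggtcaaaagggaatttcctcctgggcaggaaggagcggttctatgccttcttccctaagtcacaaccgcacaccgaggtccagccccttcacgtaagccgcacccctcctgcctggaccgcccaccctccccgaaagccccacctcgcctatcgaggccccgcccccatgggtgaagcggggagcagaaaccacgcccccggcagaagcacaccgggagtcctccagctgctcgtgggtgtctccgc
Prdx1 (GRCr8 chr5:135383656-135383905, plus strand): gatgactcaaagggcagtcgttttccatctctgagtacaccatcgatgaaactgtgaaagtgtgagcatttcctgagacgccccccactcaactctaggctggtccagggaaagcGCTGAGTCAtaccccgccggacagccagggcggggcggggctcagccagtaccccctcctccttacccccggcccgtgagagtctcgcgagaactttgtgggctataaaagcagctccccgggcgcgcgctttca
Txnrd1 (GRCr8 chr7:22755905-22756154, minus strand): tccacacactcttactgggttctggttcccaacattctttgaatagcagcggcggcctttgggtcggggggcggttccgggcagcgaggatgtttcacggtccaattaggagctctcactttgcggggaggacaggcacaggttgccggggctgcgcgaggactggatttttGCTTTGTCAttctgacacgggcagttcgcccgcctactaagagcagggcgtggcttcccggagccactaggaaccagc
Mt1 (GRCr8 chr19:10832976-10833225, minus strand): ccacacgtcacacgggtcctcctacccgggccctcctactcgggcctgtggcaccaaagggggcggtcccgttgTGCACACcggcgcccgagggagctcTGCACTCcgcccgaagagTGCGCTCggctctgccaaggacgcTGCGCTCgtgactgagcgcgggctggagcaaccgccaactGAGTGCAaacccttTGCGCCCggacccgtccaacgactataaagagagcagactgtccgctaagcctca

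The match ran from position -135 to -127 before the start site in Prdx1 and from -78 to -70 in Txnrd1, both on the reverse strand. The metal response element, the site of the zinc sensor MTF-1, was searched as TGCGCNC and TGCACNC. Mt1 held 6 such matches and Mt2A 4, and 20.6% of all promoters held at least 1. The log2 fold changes of Mt1 and Mt2A, 0.12 and 0.02, were within their SE.

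The rest of these pathways was read from 111 further genes, of which 102 had a named probe and 86 were tested. They too were chosen with earlier results of these data known, so their shares are a description and not a test. At an unadjusted p under 0.05 by limma, 3 were higher with C3a and 6 were lower (3.49% and 6.98%, against 2.89% and 2.46% of all genes), and 0 passed the adjusted threshold (adjusted p = 0.746 for each of the 9). Of the 86, 75 passed the filter in both groups and 11 through the C3a arrays alone, among them 2 of the 3 higher genes, Steap3 and Sesn3, so the higher count depends on the filter. With the filter on all 6 arrays 1 gene was higher and 7 were lower. Without C3a 3 the lower count was 0, without Control 2 or C3a 1 it was 2, and without any 1 of Control 1, C3a 1, C3a 2 or C3a 3 the higher count was 1. With the replicate block 3 were higher and 13 lower, or 3.49% and 15.1%, against 5.79% and 6.06% of all genes. The groups did not overlap for 7 genes that were higher and 9 that were lower (8.14% and 10.5%, against 8.09% and 4.86%). The 86 genes had a median log2 fold change of 0.0041, against 0.04 over all genes.

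The lower genes included 3 of the 18 tested among other NRF2 targets and NADPH suppliers, where 0 were higher. Over all genes 2.46% were lower and 2.89% higher at this threshold. Idh1, the cytosolic isocitrate dehydrogenase that makes NADPH, had a level of 1.17, 1.66 and 1.04 in Control and 0.90, 0.86 and 0.73 with C3a (log2 fold change -0.46, SE 0.17, unadjusted p = 0.0305). Pgd, the NADPH-producing enzyme of the pentose phosphate pathway, had 1.00, 1.12 and 0.78 in Control and 0.75, 0.74 and 0.33 with C3a (-0.36, SE 0.15, unadjusted p = 0.0491). Ephx1, the microsomal epoxide hydrolase, had 0.53, 1.02 and 0.49 in Control and 0.37, 0.38 and -0.0023 with C3a (-0.43, SE 0.18, unadjusted p = 0.0490). For all 3 the groups did not overlap and Control 2 was the highest array. Without Control 2 the log2 fold change was -0.27 for Idh1 (unadjusted p = 0.0411 by limma), -0.26 for Ephx1 (0.129) and -0.29 for Pgd (0.135), and without C3a 3 that of Pgd was -0.22 (0.144). The unadjusted p stayed under 0.05 in 3 of 6 such fits for Idh1 and in 2 of 6 for Pgd and for Ephx1. Me1, the malic enzyme, which also makes NADPH, gave -0.0035. The median of this list was -0.05.

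Of the other glutathione genes 2 of 20 were lower and 0 higher, against 2.46% and 2.89% of all genes. Mgst1, a membrane-bound glutathione transferase, had 2.86, 2.89 and 2.86 in Control and 2.62, 2.73 and 2.41 with C3a (-0.28, SE 0.11, unadjusted p = 0.0356). Slc3a2, the partner chain of Slc7a11 in the cystine transporter, had 2.93, 3.11 and 2.79 in Control and 2.66, 2.76 and 2.33 with C3a (-0.36, SE 0.15, unadjusted p = 0.0443). Neither pair of groups overlapped, whereas the groups of Slc7a11 did. Without C3a 3 the log2 fold change was -0.20 for Mgst1 (unadjusted p = 0.0990 by limma) and -0.23 for Slc3a2 (0.131), and the unadjusted p stayed under 0.05 in 1 and 2 of 6 fits that left out 1 array. The list had a median of 0.03, with 13 of the 20 above 0 and 7 below. Its groups did not overlap for 2 genes that were higher and 2 that were lower, against 8.09% and 4.86% of all genes.

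Among the other oxidase subunits and oxidant sources 8 of 18 with a probe were tested. Noxa1, an activator of NOX1, had -1.29, -1.31 and -1.17 in Control and -1.01, -0.95 and -1.02 with C3a (log2 fold change 0.26, SE 0.09, unadjusted p = 0.0230). Nox1 itself was well above background on 1 array of each group and was not tested. Nos3, the endothelial nitric oxide synthase, had -1.18, -1.49 and -1.57 in Control and -1.67, -1.74 and -1.998 with C3a (-0.39, SE 0.14, unadjusted p = 0.0277). Both genes stood apart from Control on every array, and the unadjusted p stayed under 0.05 in 4 of 6 fits that left out 1 array. It was above 0.05 for Noxa1 without Control 1 or C3a 2, and for Nos3 without Control 1 or C3a 3. The summed signal of all 8 endothelial markers with a probe was 33.4 to 46.1 times the 75th percentile in Control and 42.4 to 53.6 times with C3a. Of the 8 markers, 5 were well above background on all arrays. Vwf and Kdr, the brightest at mean Control levels of 4.63 and 3.70, made up most of the sum. The part of this signal in the Nos3 value was not tested. The markers did not move one way. Vwf, Kdr, Cdh5 and Pecam1 had log2 fold changes between 0.06 and 0.26 with overlapping groups, whereas Tek had -0.23 (SE 0.12, unadjusted p = 0.0855 by limma) and every C3a array below every Control array. Tie1, above background on 2 arrays of each group and not tested, also read lower on every C3a array (-4.01, -3.63 and -4.69) than on any Control array (-3.54, -3.02 and -3.60). Of the cytosolic oxidase subunits, Ncf1 (p47phox) gave -0.01 (SE 0.11) and Rac1 gave -0.18 (SE 0.10, unadjusted p = 0.121). Ncf4 was well above background on 2 Control arrays and 1 C3a array and was not tested.

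The remaining genes below the unadjusted threshold were Steap3, an iron reductase, and Sesn3, a sestrin. Steap3 had -4.27, -3.78 and -3.76 in Control and -3.14, -3.69 and -3.55 with C3a (0.48, SE 0.20, unadjusted p = 0.0451). Sesn3 had -3.05, -2.59 and -2.35 in Control and -2.35, -2.19 and -2.14 with C3a (0.43, SE 0.18, unadjusted p = 0.0483). Both were missed on Control 1, which had the highest background, and without that array their log2 fold changes were 0.31 and 0.24 (unadjusted p = 0.128 and 0.124 by limma). As they passed the filter through the C3a arrays alone, where they were higher, their differences are given as values and not called increases. The list of NRF2 regulators (Bach1, small MAF proteins, Cul3 and others) gave 0 calls of 9 tested in either direction, with Mafk the lowest at -0.51 (SE 0.25, unadjusted p = 0.0793, and 0.0288 with the block, but -0.24 without Control 2).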

How the data were processed

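Gene expression was measured in NRVCs on 6 one-colour Agilent arrays, 3 Control and 3 C3a, grouped by the titles in the sample records. Per the labels, the authors extracted the spot intensities with Agilent Feature Extraction 11.5.1.1, which corrects for local background; the deposited intensity values are linear, with no scaling between arrays. A table of log2 values for 36638 probes, also deposited, matched the uncentred main scale used here to a median difference of at most 0.0059.

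Control spots and flagged outliers were left out, spots of one probe were averaged, and each array's 75th percentile was subtracted on the log2 scale. A probe was well above background where at least 50% of its spots were. The 23438 of 45598 probes that met this on every array of Control, of C3a or of both were compared with limma (version 3.58.1, R version 4.3.3; eBayes after lmFit, two-sided, Benjamini-Hochberg over these probes). The filter was met by 17519 probes in Control and 23425 with C3a. Probes were named by accession through RefSeq genes of GRCr8 (46.3% matched), and a gene was read from its brightest probe. The fit was tested on simulated arrays.

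The members and all gene lists were chosen with earlier results of these data known. Named in detail were members at an unadjusted p under 0.05 with or without the block, members whose groups did not overlap, members not well above background on all 6 arrays, and Nfe2l2, Keap1, Hmox1, Nqo1, Cybb, Cyba and Nox4; from the further lists, genes at an unadjusted p under 0.05 and Ncf1, Ncf4 and Rac1. Some genes of these lists are not reported here. The second probes of Gpx4 and Txnrd1 and the genes Gclc, Gpx3, Fth1, Ftl1 and Mafk were added after their values were seen. Deviations from the group mean correlated at 0.28, 0.32 and 0.31 between arrays of the same replicate number and at -0.26 to -0.09 between others. The pairing comes from these values, since the records hold no more than a number, shared with the array's position along the slide. Marker lists for neutrophils (0 of 5 genes above background on any array) and red blood cells (3 of 5 on all 6 arrays) were also read. Alternatives were other scalings, filters, variance models, the replicate block, the methods' t-test, the deposited log2 table and each array left out in turn; 1 slide and 1 scan left no slide block.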

Additional observations from a re-analysis of the deposited data

How the results depend on the processing

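In all 20 alternatives 0 members passed the adjusted threshold, and Hmox1 stayed lower at an unadjusted p under 0.05. The unadjusted counts moved more, and the cause was not tested. Members higher numbered 0, against 1, under quantile normalization, no normalization, the percentile over detected probes, spike-in scaling, no filter on dim probes, the filter on 2 of 3 arrays, the methods' t-test and the mean over a gene's probes. Members lower numbered 5 without normalization, 1 with dim probes left in, and 4 with the filter on all 6 arrays or a variance trend, against 2. Members with separate groups, lower, numbered 10 without normalization, 1 after spike-in scaling and 2 after normexp, against 4. Those higher numbered 1 under quantile normalization or normexp and 2 with the percentile over detected probes, against 0. The share of all genes with separate groups was not counted on these other scales, so these counts have no background beside them. With the replicate block 3 members were lower and 1 higher, the further genes gave 13 lower, and all kept probes gave 1815 higher and 1371 lower, against 780 and 587; the block changed the call of Prdx3 and of no other member. Over all kept probes the counts, higher then lower, were 41 and 2558 when arrays were not normalized, 9 and 1709 after spike-in scaling, and 565 and 725 with the percentile over detected probes. There were 357 higher and 677 lower without a filter, 366 and 645 with the filter on all 6 arrays, 349 lower after normexp and 362 lower by the methods' t-test. Among the further genes, the higher count of 3 was 1 under quantile normalization, the percentile over detected probes, the filters on all 6 or 2 of 3 arrays, the variance trend, array weights and the methods' t-test, and 0 without normalization, after spike-in scaling and without a filter. Their lower count of 6 was 14 without normalization, 12 after spike-in scaling, 0 without a filter, and 1 with array weights or the methods' t-test. Leaving out 1 array at a time gave 0 to 1 members higher and 1 to 4 lower, 0 to 3 and 4 to 6 members with separate groups, 439 to 1256 probes higher and 272 to 882 lower, and 1 to 4 further genes higher and 0 to 7 lower.

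Gpx4 was above an unadjusted p of 0.05 in 13 of the 20 alternatives, including its mean over both probes (0.36), and Nqo1 in 5. Background sets a limit for Gclm, Cybb and Nox4, and for Slc7a11 and Gsr on Control 1. Slide side and treatment cannot be told apart, and 3 arrays a group left limma with little power for changes of 0.5 on the log2 scale.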
